A study of Rattus norvegicus with 3 samples.

Results

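The transcripts of 10 genes that clear reactive oxygen or keep thiols reduced were followed in rat platelets: Cat, Sod1, Gpx1, Gpx4, Prdx1, Prdx2, Prdx5, Prdx6, Txn1 and Txnl1. They were chosen by gene symbol as the members of this antioxidant group, with earlier readings of the same arrays known, so their differences are given as a description. All 10 of 10 had a feature with a single symbol, 1 feature each, among 15037 named genes on the array. The study loaded platelets of F344 rats, an inbred strain, with sorafenib (SOR-PLT) or lenvatinib (LEN-PLT), both inhibitors of several kinases, and kept control platelets (PLT). Isolated platelets were shaken with 10 µg of either drug at 37 °C for 30 minutes, and drug outside the cells was removed by centrifuging at 1000 g for 5 minutes. It is not stated whether PLT were incubated and washed in the same way, so drug and handling cannot be told apart in a difference from PLT. For each of the 3 groups, platelets from 5 normal rats were pooled, and total RNA went on 1 array, which leaves no replicate, no error and no p-value. The age and sex of the rats are not given in the sources used here.

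Superoxide, a by-product of respiration and of oxidases, is turned into hydrogen peroxide by superoxide dismutases. Catalase, the glutathione peroxidases and the peroxiredoxins then remove the peroxide, and thioredoxin keeps most peroxiredoxins in their reduced, working form. Peroxide is also a signal in platelets, which take part in clotting, and red cells hold large amounts of several of these proteins. Platelets have no nucleus, so their messenger RNA is mostly inherited from the megakaryocyte.

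Values are log2 signals, and differences are log2 units between 2 arrays in the order they are named, so that 1 is 2-fold. Medians over all features were 4.22 in SOR-PLT, 4.22 in LEN-PLT and 4.21 in PLT. The array carried 1153 negative control features, whose 95th percentile of 7.69 serves here as the level of background, and 1961 genes (13.0%) reached it with their mean. Genes with a mean of at least 4.25, the median of all genes, number 7519. Of the 10 antioxidant genes, 10 lay above that filter and 7 at or above the background level. Prdx1, Prdx2 and Sod1 lay below 7.69 on all 3 arrays. No fold value is printed for them, but they stay in the counts over the group, also those at a fold threshold. In pooled cells, fewer cells of a type and less RNA per cell cannot be told apart, and array signals are relative to the rest of the RNA on that array.

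Platelet markers were bright on each array, and most leukocyte markers were under background. Of 15 platelet genes listed, 10 had a named feature, all above background, with a mean log2 signal of 18.34 in SOR-PLT, 18.31 in LEN-PLT and 18.32 in PLT. Pf4, Clec1b and Nrgn stood at the array's ceiling of 19.93 on all 3 arrays, where no difference can be read. Of 12 measured leukocyte genes, 1 reached background, S100a9, at 7.97 in SOR-PLT, 7.88 in LEN-PLT and 8.37 in PLT. The T cell chain Cd3e and the monocyte receptor Cd14 were below background on each array. Some red-cell genes were as bright as platelet markers. Hba-a1 stood at the ceiling of 19.93 on all 3 arrays. Hbb read 18.56 in SOR-PLT, 18.68 in LEN-PLT and 18.63 in PLT. These markers thus do not show that the RNA came from platelets alone.

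The start regions of Cat and Txnl1 are shown because these are the members with a 2-fold difference, and that of Prdx1 because it holds an antioxidant response element core. Each run is the 250 bases before the RefSeq transcript start, on the strand of the gene, in build GRCr8. Capitals mark matches on either strand to the antioxidant response element core TGACNNNGC, the CCAAT box CCAAT, the TATA box TATAAA or the GC box GGGCGG, and overlapping matches run together.
Cat, chr3:110329527-110329776, minus strand: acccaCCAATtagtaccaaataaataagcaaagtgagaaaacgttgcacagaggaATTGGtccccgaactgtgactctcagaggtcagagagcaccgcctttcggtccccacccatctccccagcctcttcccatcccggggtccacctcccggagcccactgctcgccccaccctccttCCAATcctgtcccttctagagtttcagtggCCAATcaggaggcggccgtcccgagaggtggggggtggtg
Txnl1, chr18:59425392-59425641, minus strand: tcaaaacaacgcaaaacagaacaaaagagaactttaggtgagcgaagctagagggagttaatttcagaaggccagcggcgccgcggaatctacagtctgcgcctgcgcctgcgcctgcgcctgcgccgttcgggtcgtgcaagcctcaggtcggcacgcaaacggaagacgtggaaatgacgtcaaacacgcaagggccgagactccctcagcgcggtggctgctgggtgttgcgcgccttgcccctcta
Prdx1, chr5:135383656-135383905, plus strand: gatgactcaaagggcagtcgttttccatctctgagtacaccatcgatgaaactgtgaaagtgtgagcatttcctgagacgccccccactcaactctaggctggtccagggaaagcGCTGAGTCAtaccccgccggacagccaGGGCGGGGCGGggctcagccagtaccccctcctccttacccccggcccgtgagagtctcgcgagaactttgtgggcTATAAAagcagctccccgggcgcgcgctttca
The Cat window held 4 CCAAT boxes and 0 matches to the other motifs. The Prdx1 window held 1 antioxidant response element core, GCTGAGTCA, the reverse complement form, beginning 135 bases before the start, together with 2 GC boxes and 1 TATA box. Among 33469 RefSeq start windows of the same length, 10.1% held the response element core, 34.0% a CCAAT box, 12.9% a TATA box and 30.5% a GC box. Of the 10 genes, 9 had a window in the RefSeq table and Prdx6 was not searched. Among those 9, Prdx1 was the only one with a core match in any listed window. The Txnl1 window held none of the 4 motifs. These matches describe letters alone, and the arrays measured no promoter activity.

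Across the group, Cat and Txnl1 were the members with a 2-fold difference anywhere. Txnl1 was 2-fold lower in LEN-PLT than in PLT, and Cat was 2-fold lower in SOR-PLT than in LEN-PLT. In SOR-PLT minus PLT, 0 of 10 members were 2-fold apart, where 0.585% of the genes above the filter were. In LEN-PLT minus PLT, 1 of 10 was, where 0.652% of genes were, and in SOR-PLT minus LEN-PLT, 1 of 10 was, where 0.386% were. Because those contrasts were known when the group was drawn up, these shares are printed as background and nothing is read from them.

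**Figure D1:**
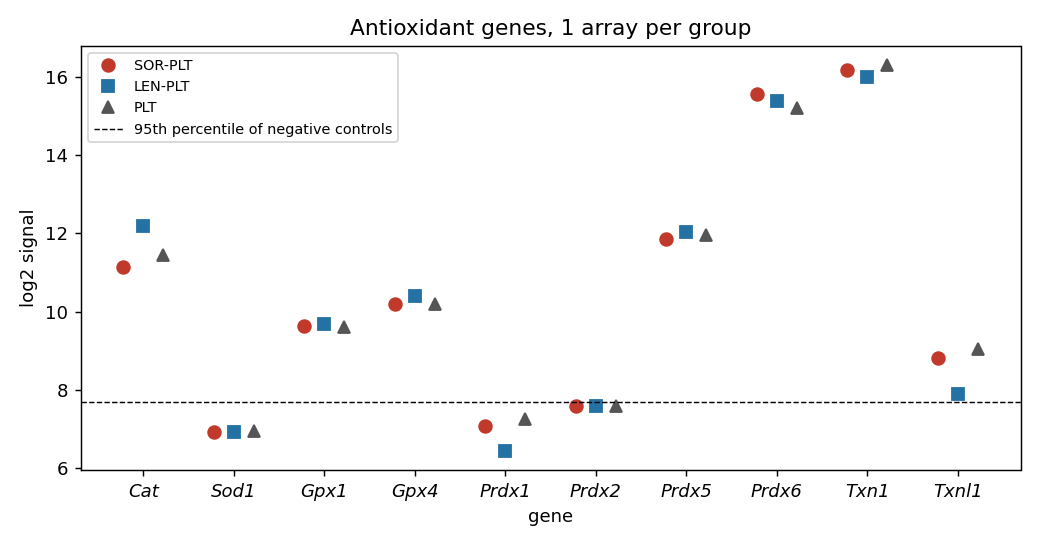
Log2 signal (vertical axis) of each of the 10 antioxidant genes in SOR-PLT (circles), LEN-PLT (squares) and PLT (triangles), 1 array each, with the negative controls' 95th percentile of 7.69 as a dashed line. Cat and Txnl1 spread by 1.04 and 1.16 over the 3 arrays, Prdx2 has the same value on all, and Prdx1, Prdx2 and Sod1 lie below the line.

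Sod1, the copper-zinc superoxide dismutase of the cytosol, read 6.93 in SOR-PLT, 6.93 in LEN-PLT and 6.96 in PLT. The drug arrays held exactly the same value and PLT was 0.02 higher. Its signal was under background, so the arrays say little about Sod1.

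Cat encodes catalase, the haem enzyme that splits hydrogen peroxide into water and oxygen. It read 11.14 in SOR-PLT, 12.19 in LEN-PLT and 11.45 in PLT, all well above background. The drug arrays lay on opposite sides of PLT: SOR-PLT was lower, with a log2 difference of -0.31, and LEN-PLT was 1.66-fold higher than PLT, a log2 difference of 0.73. Between the drug arrays the difference was -1.04, or 2.06-fold lower in SOR-PLT than in LEN-PLT. Of the 1961 genes at or above background, 4 (0.204%) were as far apart between SOR-PLT and LEN-PLT, Cat included. In LEN-PLT minus PLT, 48 of them (2.45%) were as far apart as Cat, and in SOR-PLT minus PLT 327 (16.7%) were. Thus most of the spread of Cat lay in LEN-PLT, and its distance from PLT in SOR-PLT was close to the SD of 0.27 over the 190 genes whose mean lay within 0.5 of that of Cat. Drug arrays on opposite sides of PLT were found for 16.7% of genes at or above background, and Cat and Prdx5 were the members with that arrangement.

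Gpx1, the cytosolic glutathione peroxidase, read 9.64 in SOR-PLT, 9.67 in LEN-PLT and 9.61 in PLT. Its whole range was 0.07, the smallest among the 7 members above background. Gpx4, which reduces lipid peroxides in membranes, read 10.19 in SOR-PLT, 10.40 in LEN-PLT and 10.19 in PLT. SOR-PLT and PLT were tied for Gpx4, and LEN-PLT was higher by 0.21, within the SD of 0.29 over the 253 genes of like signal. Both are selenoproteins. Neither separated the groups by more than genes of like signal usually were.

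Among the peroxiredoxins, Prdx5 and Prdx6 alone lay above background, and SOR-PLT was higher than PLT for Prdx6 but not for Prdx5. Prdx1, an abundant cytosolic form, read 7.08 in SOR-PLT, 6.44 in LEN-PLT and 7.26 in PLT, with LEN-PLT lowest. The log2 difference of LEN-PLT minus PLT was -0.82 and that of SOR-PLT minus PLT -0.18, but all 3 readings were under background. Of the 5558 genes between the filter and background, 109 (1.96%) were as far apart in LEN-PLT minus PLT as Prdx1. Prdx2, the peroxiredoxin plentiful in red cells, read 7.59 on every array. A value shared by all 3 arrays occurred in 15.2% of the genes above the filter, so a tie is common in the deposited values and does not show equal transcript amounts. Prdx5, found in mitochondria, peroxisomes and cytosol, read 11.86 in SOR-PLT, 12.03 in LEN-PLT and 11.95 in PLT, a range of 0.16 with PLT in the middle. Prdx6, which also has phospholipase activity, read 15.56 in SOR-PLT, 15.38 in LEN-PLT and 15.19 in PLT. Both drug arrays were above PLT for Prdx6, by 0.37 and 0.19. The first of these, in SOR-PLT, was reached by 5 of 82 genes of like signal (6.1%, Prdx6 included), and the second, in LEN-PLT, by 42 of them (51.2%). Prdx6 had the largest difference of SOR-PLT from PLT in the group.

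Txn1 encodes thioredoxin, the small redox protein that recharges peroxiredoxins. It read 16.16 in SOR-PLT, 15.99 in LEN-PLT and 16.29 in PLT, with both drug arrays lower, by log2 differences of -0.12 and -0.30. Among 69 genes of like signal, 31 were as far apart in SOR-PLT minus PLT and 10 in LEN-PLT minus PLT, so that the SOR-PLT difference was common at that brightness and the LEN-PLT difference was reached by 14.5% of such genes, Txn1 included.

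Txnl1 encodes a thioredoxin-like protein, known in human cells to bind the proteasome. Txnl1 read 8.81 in SOR-PLT, 7.89 in LEN-PLT and 9.05 in PLT. LEN-PLT alone stood low, 2.23-fold under PLT (log2 difference -1.16), while the log2 difference of SOR-PLT minus PLT was -0.24. The reading of 7.89 in LEN-PLT was close to the 95th percentile of negative controls on that array, 7.68. Of the 1961 genes at or above background, 4 (0.204%) were as far apart in LEN-PLT minus PLT, Txnl1 included. Of the 379 genes with like signal, 2 (0.528%) were, Txnl1 included. Between SOR-PLT and LEN-PLT the log2 difference was 0.92, just short of 2-fold.

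**Figure D2:**
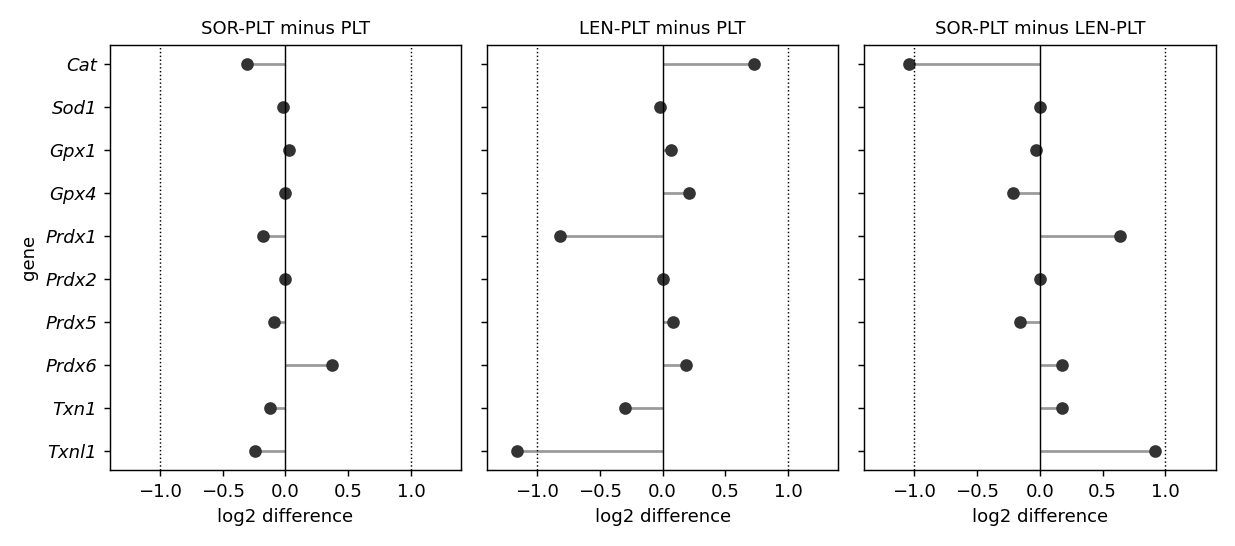
Log2 difference (horizontal axis) of each antioxidant gene in SOR-PLT minus PLT, LEN-PLT minus PLT and SOR-PLT minus LEN-PLT, with dotted lines at 2-fold. Txnl1 passes the line at -1.16 in the middle panel and Cat passes it at -1.04 in the right panel.

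Counted over the group, SOR-PLT was higher than PLT for 2 of 10 members, lower for 6 and tied for 2, with a median difference of -0.05. For the genes above the filter the shares were 36.4% higher, 35.4% lower and 28.1% tied, and their median was 0.00. LEN-PLT was higher than PLT for 5 of 10, lower for 4 and tied for 1, with a median of 0.03. Among the genes above the filter, 37.8% were higher, 35.8% lower and 26.4% tied. SOR-PLT was higher than LEN-PLT for 4, lower for 4 and tied for 2, with a median of 0.00, where 33.6% of genes were higher, 36.8% lower and 29.6% tied. At a threshold of 1.5-fold, 0 of 10 members were apart in SOR-PLT minus PLT (5.28% of genes), 3 in LEN-PLT minus PLT (6.29% of genes) and 3 in SOR-PLT minus LEN-PLT (4.6% of genes). In both of the last counts the 3 members were Cat, Txnl1 and Prdx1, of which 2, Cat and Txnl1, lay above background. Among the 7 members above background, SOR-PLT was higher than PLT for 2, lower for 4 and tied for 1. LEN-PLT was higher than PLT for 5 of those 7 and lower for 2. Over the 1961 genes at or above background, SOR-PLT was higher than PLT for 780, lower for 763 and tied for 418. LEN-PLT was higher than PLT for 808 of the 1961, lower for 768 and tied for 385. No direction was thus shared by all members. Their differences from PLT ran from -0.31 to 0.37 in SOR-PLT and from -1.16 to 0.73 in LEN-PLT.

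**Figure D3:**
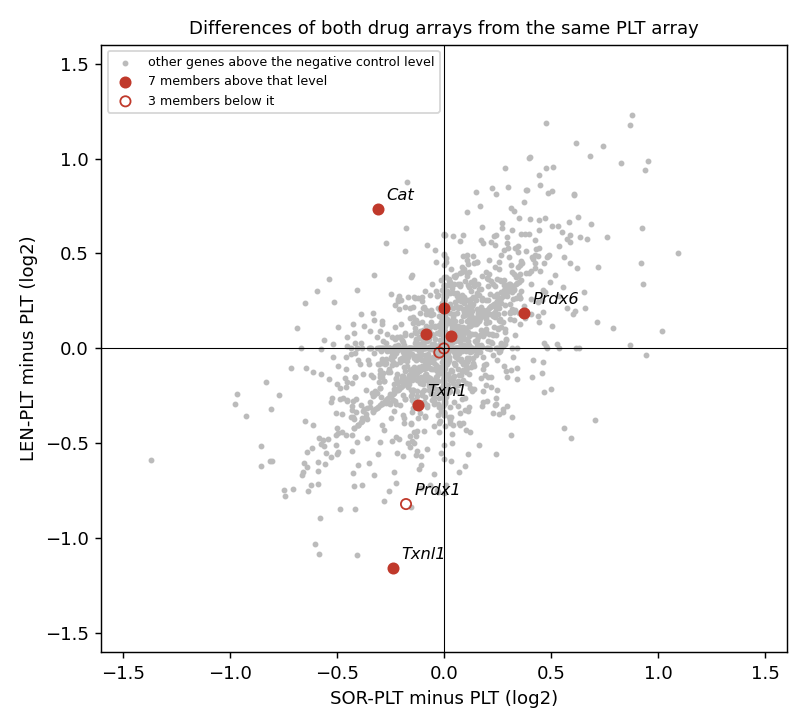
Difference of SOR-PLT from PLT (horizontal axis, log2) against that of LEN-PLT from PLT (vertical axis, log2) for genes at or above background, in grey, and the 10 antioxidant genes, in red, with open circles for the 3 below background. Both axes share the PLT array, Cat lies at -0.31 and 0.73 and Txnl1 at -0.24 and -1.16.

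The genes nearest to Cat in pattern were taken by the Euclidean distance of the differences of SOR-PLT and LEN-PLT from PLT, among the 1961 genes at or above background. They were Aak1, a kinase of clathrin-mediated endocytosis, at a distance of 0.17, Irag1, a target of cGMP-dependent kinase that restrains calcium release, at 0.18, and Unc13b, a priming factor of vesicle release, at 0.20. Aak1 read 13.68 in SOR-PLT, 14.49 in LEN-PLT and 13.86 in PLT. The nearest to Txnl1 were Trappc2, of a vesicle tethering complex, at 0.18, Gpr15lg at 0.33 and Cmtm6, a membrane protein, at 0.35. Trappc2 read 9.35 in SOR-PLT, 8.67 in LEN-PLT and 9.76 in PLT. Likeness over 3 arrays rests on 2 differences that share the PLT array.

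Around these members, 53 other genes of the antioxidant system were listed, of which 46 had a named feature. Of the 46, SOR-PLT was higher than PLT for 12, lower for 19 and tied for 15, and LEN-PLT was higher for 16, lower for 18 and tied for 12. SOR-PLT was higher than LEN-PLT for 10, lower for 21 and tied for 15. Over all 15037 genes, in the same order, the counts were 5254 higher, 5192 lower and 4591 tied, then 5326, 5275 and 4436, then 5015, 5198 and 4824. For the 14 of the 46 at or above background, they were 4, 5 and 5, then 4, 6 and 4, then 4, 4 and 6. Over the 1961 genes at or above background, they were 780, 763 and 418, then 808, 768 and 385, then 675, 839 and 447. The median difference of the 46 was 0.00 in all 3 comparisons, as it was over all genes. At or above background were 14: Prdx3, Gpx3, Sod2, Ccs, Txnip, Txndc17, Tmx1, Glrx, Gclm, Gsr, Gstp1, Gstm1, Selenop and Park7.

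Txndc5, a disulfide isomerase of the endoplasmic reticulum, was the only listed gene 2-fold apart in any comparison. It read 6.25 in SOR-PLT, 6.28 in LEN-PLT and 5.25 in PLT, higher by 1.00 and 1.03 in the drug arrays but under background on each. Txndc17, a thioredoxin-related protein, read 8.51 in SOR-PLT, 9.23 in LEN-PLT and 8.84 in PLT, so that it lay on opposite sides of PLT as Cat did. Its log2 difference between SOR-PLT and LEN-PLT was -0.71. Glrx, a glutaredoxin, read 12.06 in SOR-PLT, 11.63 in LEN-PLT and 11.60 in PLT, with SOR-PLT alone set apart. Gstm1, a glutathione transferase, read 9.23 in SOR-PLT, 8.67 in LEN-PLT and 8.82 in PLT. Ccs, the chaperone that delivers copper to Sod1, read 12.17 in SOR-PLT, 12.35 in LEN-PLT and 12.62 in PLT, with both drug arrays lower. Gsr, glutathione reductase, read 15.42 in SOR-PLT, 15.61 in LEN-PLT and 15.35 in PLT. Sod2, the mitochondrial dismutase, read 19.05 on every array, near the ceiling. Txnrd1, the cytosolic thioredoxin reductase, was at 3.97 on every array, and Nfe2l2, the transcription factor that drives many of these genes, was under background at 6.80 in SOR-PLT, 6.63 in LEN-PLT and 6.80 in PLT. Sod2, Txnrd1 and Nfe2l2 were named after their values were seen.

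**Figure D4:**
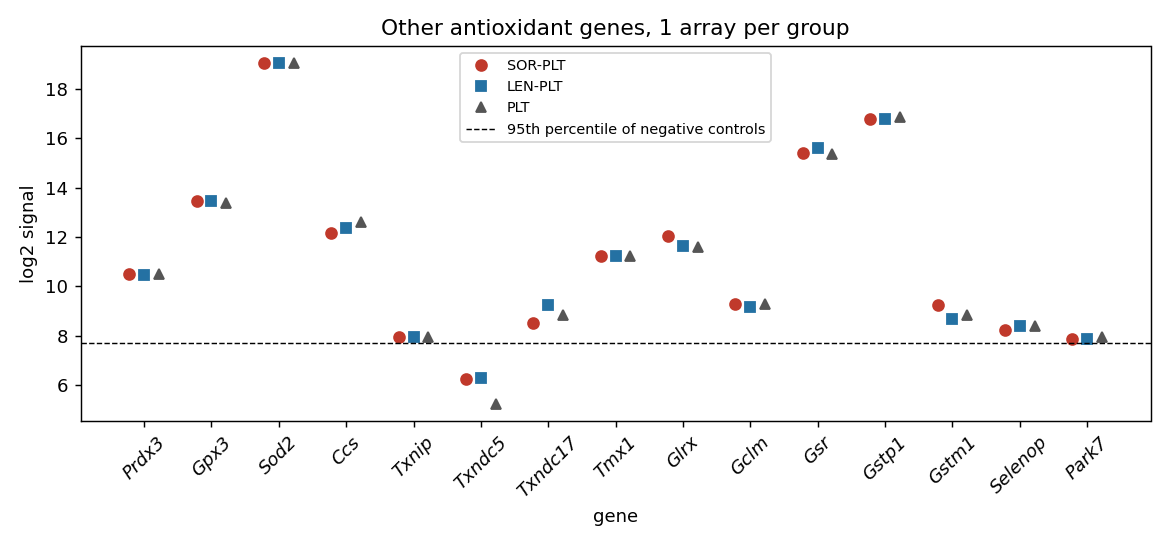
Log2 signal (vertical axis) in SOR-PLT (circles), LEN-PLT (squares) and PLT (triangles) of the 14 other antioxidant genes at or above background and of Txndc5, with the level of 7.69 dashed. The 3 symbols lie close together for most genes, and Txndc17 and Txndc5 have the widest gaps.

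Red-cell markers are given beside Cat and Prdx2 because red cells carry much of both proteins. Of 16 measured erythroid genes, LEN-PLT was higher than PLT for 12, lower for 1 and tied for 3, with a median difference of 0.13. Over all 15037 genes, LEN-PLT was higher than PLT for 5326, lower for 5275 and tied for 4436. The erythroid median difference of SOR-PLT from PLT was 0.00, from 6 genes higher, 4 lower and 6 tied. Over all genes, 5254 were higher, 5192 lower and 4591 tied. Among the erythroid genes, SOR-PLT was higher than LEN-PLT for 0, lower for 13 and tied for 3. Over all genes, 5015 were higher, 5198 lower and 4824 tied. The summed log2 signal of the erythroid list was 157.0 in SOR-PLT, 160.8 in LEN-PLT and 155.7 in PLT. For its genes at or above background alone, the sums were 128.8, 130.5 and 127.8, in the same order. A sum of log2 values is not a total signal. At or above background were 10 of the 16, and the erythroid transcription factor Klf1 stood at 3.16 on every array. For those 10 genes, LEN-PLT was higher than PLT for 8, lower for 0 and tied for 2. Over the 1961 genes at or above background, 808 were higher, 768 lower and 385 tied. The list's largest difference was that of Lgals5, a galectin of rat red cells, which read 11.82 in SOR-PLT, 12.17 in LEN-PLT and 10.94 in PLT. Lgals5 was thus higher than PLT in both drug arrays, by 0.88 and 1.23. For Cat, the differences from PLT were -0.31 in SOR-PLT and 0.73 in LEN-PLT. Epb42, of the red-cell membrane skeleton, was 2-fold higher in LEN-PLT, at 4.23 in SOR-PLT, 5.23 in LEN-PLT and 4.11 in PLT, all under background. Slc4a1, the red-cell anion exchanger, read 8.23 in SOR-PLT, 8.78 in LEN-PLT and 7.93 in PLT. Other erythroid genes above background differed less or could not be read. Hbb read 18.56 in SOR-PLT, 18.68 in LEN-PLT and 18.63 in PLT, and Rhag read 16.86, 16.98 and 16.82. LEN-PLT was above PLT by 0.21 for Hbb-b1 and by 0.05 for Bpgm. Gypc read 9.38 on every array. Sptb rounded to 9.76 on every array. It is counted above as higher in LEN-PLT than in the other arrays, by differences that round to 0.00. Hba-a1 stood at the ceiling on all 3 arrays, where no difference can be read. Alas2, the erythroid haem synthesis enzyme, read 12.08 in SOR-PLT, 12.25 in LEN-PLT and 12.09 in PLT. Cat had its highest reading on the same array as most erythroid genes, and Gpx1 ranged over 0.07. Prdx2 was tied on all arrays and Sod1 ranged over 0.02. Both were under background, so their small ranges say little. The part of red-cell RNA in the Cat reading was not tested.

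**Figure D5:**
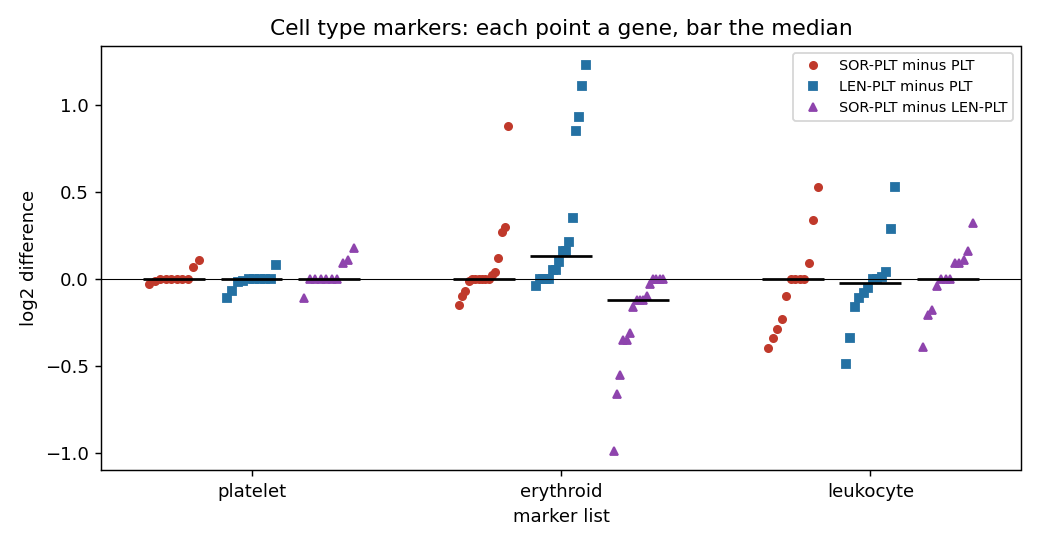
Log2 differences (vertical axis) of the measured platelet, erythroid and leukocyte marker genes in the 3 comparisons, 1 point a gene and a bar at the median. Erythroid genes have a median of 0.13 in LEN-PLT minus PLT and of -0.12 in SOR-PLT minus LEN-PLT, and platelet genes have medians of 0.00.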

How the data were processed

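RNA of 3 platelet pools, column-purified, with a biotin label and phycoerythrin dye per the labels' protocols, was read on 1 array each. The authors deposited log2 signals for 23188 features. Background handling, probe summary and normalization are not given in the sources used, and the array has no depth: its number limits the precision. A series value table with control features equalled these values within 5e-05. One gene symbol from the platform annotation was attached to 15049 features, and 0 symbols changed against RefSeq (GRCr8). The feature with the highest mean was kept, which left 15037 genes. Differences were taken between arrays with no test. The subtraction and the 2-fold count, but no other step, were tried on simulated data with known shifts. Members and lists were chosen with earlier results of these data known. All 10 members are named. Other antioxidant genes are named if 2-fold apart or among the 4 furthest from 0 in a comparison at or above background, and 3 pattern neighbours for each member with a 2-fold difference. Genes of like signal are those within 0.5 of the mean log2 signal of a member. Alternatives were 3 further normalizations with limma 3.58.1 (R 4.3.3) or pandas 2.3.3 (Python 3.11.15), the mean of features, the value table, other filters and other fold thresholds. Features without a symbol were left out.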

Additional observations from a re-analysis of the deposited data

How the results depend on the processing

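The 30 differences of single members moved by at most 0.06 on the log2 scale under median centring, quantile and cyclic loess normalization. The mean of features and the value table could not move them, because each member has 1 feature and the table equals the matrix within 5e-05. The counts of members 2-fold apart were 0, 1 and 1 in SOR-PLT minus PLT, LEN-PLT minus PLT and SOR-PLT minus LEN-PLT under each of those 3 normalizations. A threshold of 1.5-fold gave 0, 3 and 3 members, and one of 3-fold gave 0 in each comparison. Over all genes above the filter, in the same order, 44, 49 and 29 were 2-fold apart. Without a filter the counts were 77, 81 and 45, and for genes at the background level of 7.69 or more, 3, 12 and 4. With 1.5-fold they were 397, 473 and 346, and with 3-fold 2, 0 and 1. These counts differ because other genes or thresholds enter them. The medians of the other antioxidant genes moved by at most 0.07 when the mean replaced the median or when tied or low genes were left out. No paired analysis was possible because each group has 1 array. With 1 pooled array a group, no difference has a replicate check, and the 3 members under background carry little information.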
